A study of Mus musculus with 7 samples.

Results

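The comparison of 2 RNA-seq libraries of mouse embryonic fibroblasts (MEFs) is described, one from cells deprived of glutamine and one from cells given sodium arsenite, set directly against each other and not through the untreated control. Both treatments were picked because growth factor genes stood above the control in each, and the genes described were chosen by their difference between these same 2 libraries, so the values are a description and none of them was tested. Of 49382 genes in the deposited table, 12909 had a mean of at least 2 TPM (a share of the library corrected for transcript length) over the 7 libraries of the series. Leaving out 1282 gene models and small RNAs by their symbols left 11627 genes, of which 347 differed by more than 2-fold. Glutamine depletion was the higher library for 192 of them (1.65% of the genes compared) and arsenite for 155 (1.33%).

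The cells were wild type fibroblasts grown from embryos labelled E13.5-E14.4 after removal of the head and the fetal liver. They were kept overnight in culture and then treated, and 1 library was made per condition. The glutamine library came from cells in glutamine-free medium for 10 h, and the arsenite library from cells given 10 µM sodium arsenite for 3 h. The other libraries were an untreated control, glucose-free medium for 10 h, hypoxia at 0.1% oxygen for 10 h, endoplasmic reticulum (ER) stress from 1 µM thapsigargin for 10 h, and osmotic stress for 3 h from the addition of 100 mM NaCl. The treatment and its duration differed together between the 2 libraries, and their parts in a difference cannot be told apart. With 1 library per condition no spread between replicates exists, and the sequencing depth is unknown because TPM holds no read counts. Differences were taken on the scale of log2(TPM + 1), glutamine depletion minus arsenite, which understates the change of genes with low TPM.

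Arsenite binds thiol groups of proteins and of glutathione. The sensors known to respond to it are HSF1, which switches on heat shock chaperones when proteins misfold, NRF2, which is released from its thiol-rich partner and switches on glutathione and detoxification genes, and MTF1, which switches on metallothioneins. Glutamine is a nitrogen donor for nucleotides and amino acids and feeds the tricarboxylic acid cycle, from which cells draw citrate and so acetyl-CoA for sterols and fatty acids. Sterol genes are controlled by SREBP2, a membrane-bound factor that INSIG1 holds in the ER while sterols are plentiful. Growth factors are secreted proteins by which fibroblasts act on their own growth and on that of neighbouring cells.

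Upstream sequences are shown for 4 of the genes that differed most between the libraries. All 4 were higher in arsenite. The sequences of Hspa1a and Mt1 were chosen before the search for elements. That of Hmgcs1 was picked because it holds the element of its gene group. That of Insig1, the sterol gene with the largest difference, was picked because it does not. Each has 200 bases that end just before the start of the RefSeq transcript (RefSeq, GRCm38.p6), written 5′ to 3′ on the strand of the gene with the element in capitals. Hspa1a lies on the minus strand, and its sequence is chr17:34972157-34972356 with the heat shock element GAANNTTC. Mt1 lies on the plus strand at chr8:94178889-94179088 with the metal response element TGCNCNC, and Hmgcs1 lies on the plus strand at chr13:119690151-119690350 with the sterol response element TCACNCCAC. Insig1 lies on the plus strand at chr5:28071212-28071411 with no match to those letters.
Hspa1a: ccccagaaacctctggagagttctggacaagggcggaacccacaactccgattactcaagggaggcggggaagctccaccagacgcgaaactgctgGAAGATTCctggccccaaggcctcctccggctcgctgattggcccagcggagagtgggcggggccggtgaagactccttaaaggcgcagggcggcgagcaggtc
Mt1: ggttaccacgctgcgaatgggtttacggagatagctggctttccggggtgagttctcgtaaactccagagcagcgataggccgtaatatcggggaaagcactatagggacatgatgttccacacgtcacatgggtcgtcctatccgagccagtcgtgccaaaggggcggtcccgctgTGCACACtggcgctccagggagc
Hmgcs1: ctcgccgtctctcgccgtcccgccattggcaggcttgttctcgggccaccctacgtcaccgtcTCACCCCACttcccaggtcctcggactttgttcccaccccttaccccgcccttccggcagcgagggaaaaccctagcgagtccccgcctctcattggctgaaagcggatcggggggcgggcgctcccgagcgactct
Insig1: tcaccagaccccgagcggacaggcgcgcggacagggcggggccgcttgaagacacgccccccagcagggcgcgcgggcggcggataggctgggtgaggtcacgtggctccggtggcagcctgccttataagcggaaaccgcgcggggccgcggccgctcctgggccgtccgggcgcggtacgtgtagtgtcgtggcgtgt
Elements were searched on both strands of the 300 bases from 250 before to 50 after the start. The heat shock element (GAANNTTC or TTCNNGAA) was found in 13 of 25 promoters of 19 matched heat shock genes (52%). It was in 15.1% of all 32851 promoters of the table and in 11.6% of the 11485 promoters of the genes compared. The antioxidant response element of NRF2 (TGACNNNGC) was found in 9 of 27 promoters of 20 NRF2 target genes (33.3%), in 12.4% of all promoters and in 14.2% of those of the genes compared. The metal response element was in 5 of 6 promoters of the metal response list (83.3%), but its short letters were also in 51.0% of all promoters and in 60.6% of those of the genes compared. The sterol response element was in 1 of 17 promoters of 14 cholesterol genes (5.88%), that of Hmgcs1 shown above, in 1.24% of all promoters and in 1.18% of those of the genes compared. Promoters were matched for 109 of the 155 genes higher in arsenite and 124 of the 192 higher in glutamine depletion. The heat shock element was in 18.0% and 10.1% of their promoters, the latter near the 11.6% of the genes compared. In the same order, the antioxidant response element was in 15.8% and 8.88%, against 14.2%. The metal response element was in 64.7% and 62.1%, against 60.6%, and the AP-1 site (TGANTCA) in 12.2% and 4.73%, against 4.86%. The C/EBP-ATF response element (TGATGNAA) was in 5.04% and 4.73%, against 2.12%. The sterol response element was in 2.88% and 1.78%, against 1.18%, and the CArG box in 1.44% and 1.78%, against 1.35%. The promoter of Klf2, a gene higher in glutamine depletion, was searched for the CArG box, held no match and is not shown. Only the letters were matched, so a match is not evidence that the site was bound.

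The 2 libraries were close to each other over most genes. The difference lay within 1.5-fold for 10210 of the 11627 genes (87.8%), and the median absolute difference was 0.22. Among the 15 pairs of treated libraries, this pair had the second fewest genes past 2-fold, in a range from 323 to 3068. The median difference over all genes was 0.09, and when this median was subtracted the counts past 2-fold became 142 higher in glutamine depletion and 195 higher in arsenite, a share of 42.1% against 55.3% as measured. Mitochondrially encoded transcripts made up 7.58% of the TPM in glutamine depletion, 9.25% in arsenite and 6.37% in the control. Summed TPM of 9 fibroblast markers was 10651 in glutamine depletion and 10269 in arsenite, in a range of 6166 to 12813 over the 7 libraries. That of 9 macrophage markers was 13.4 and 15.1, in a range of 8.61 to 16.2. In bulk RNA, fewer cells with a transcript and less transcript per cell cannot be told apart. At the edges of the rule, Ccdc125 entered with a mean of 2.00 TPM and Kcnab2 stayed out just under 2 TPM. Rnd1 counted as higher in glutamine depletion at 1.00 on the log2 scale while Dnajb3 fell just short, and on the arsenite side Banp counted while Tnfrsf22 fell just short.

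**Figure D1:**
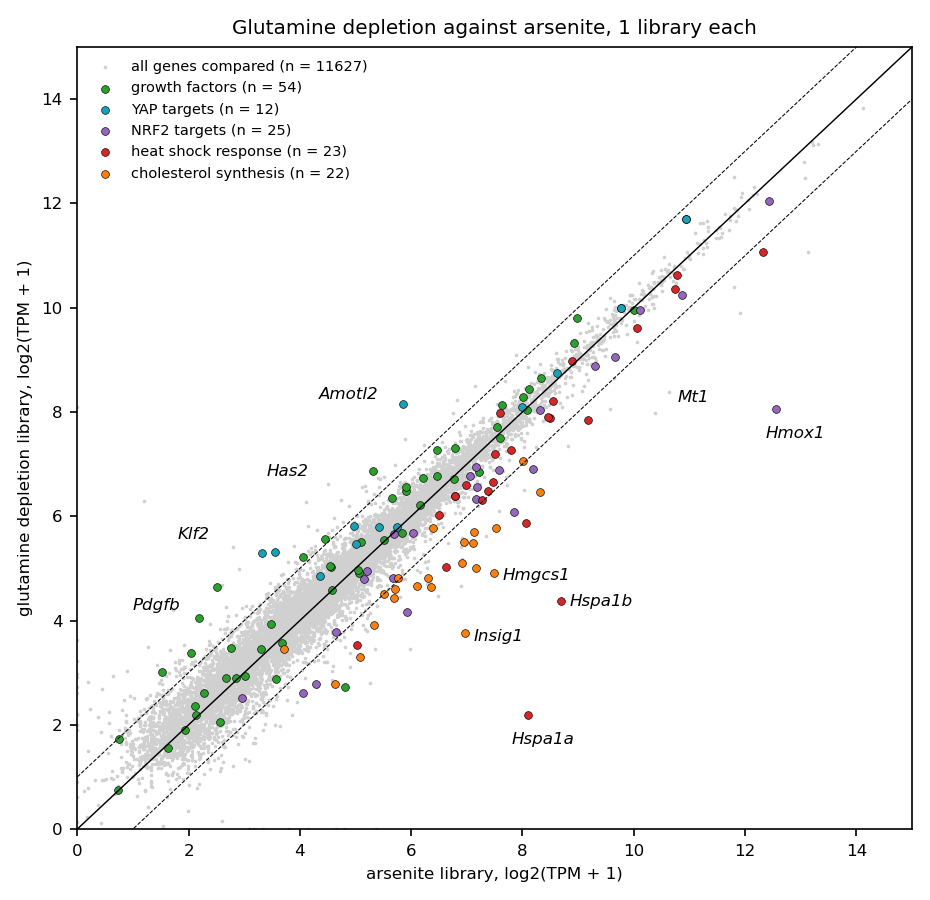
Each point is 1 of 11627 genes, with log2(TPM + 1) of the arsenite library on the x axis and of the glutamine depletion library on the y axis, the solid line marking equal values and the dashed lines 2-fold. Most genes lie between the dashed lines, cholesterol genes and heat shock genes past 2-fold lie below them, and Amotl2, Klf2, Has2 and Pdgfb lie above.

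The largest single difference on the arsenite side was that of a heat shock chaperone. Hspa1a, the inducible HSP70 chaperone, was at 3.55 TPM in glutamine depletion and 273 TPM in arsenite, with 7.52 TPM in the control, 51.4 in osmotic stress, 3.95 in glucose depletion, 5.10 in hypoxia and 2.11 in ER stress. The arsenite library was thus the highest of the 7 and osmotic stress the next, while glutamine depletion lay below the control. The difference was -5.91. Hspa1b, its near-identical neighbour on chromosome 17, was at 19.8 TPM in glutamine depletion, 413 in arsenite, 22.8 in the control and 263 in osmotic stress (difference -4.32). These genes share most of their sequence, so how their reads were split between them is uncertain, and the level of either alone is less sure than their sum.

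Of 23 heat shock genes, 7 were over 2-fold higher in arsenite (30.4%, against 1.33% of all genes compared) and none in glutamine depletion (1.65%). The list's median difference was -0.54. Hsph1, a nucleotide exchange factor of HSP70, was at 57.1 TPM in glutamine depletion, 267 in arsenite and 85.5 in the control (difference -2.20). Dnajb1, a J-domain partner that brings substrates to HSP70, was at 31.8 TPM, 98.0 TPM and 31.3 TPM in the same order (difference -1.59). The small heat shock protein gene Hspb1 was at 228, 580 and 191 TPM (difference -1.35). Hspa8, the constitutive HSP70, was already at 2473 TPM in the control and was at 5102 TPM in arsenite against 2141 in glutamine depletion. For these 4 genes glutamine depletion lay within 1.5-fold of the control, and arsenite over 2-fold above it. Hspa4l, an HSP110-class chaperone, was highest in osmotic stress at 70.3 TPM, above arsenite at 31.5 TPM and glutamine depletion at 10.5 TPM. Other abundant chaperones differed less: Hsp90ab1 was at 1318 TPM in glutamine depletion and 1707 in arsenite (difference -0.37), and the mitochondrial chaperonin Hspd1 at 500.1 and 474 TPM (difference 0.08). Against the control, 8 of the 23 were over 2-fold higher in arsenite (1.93% of all genes compared) and 0 in glutamine depletion (2.03%).

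NRF2 targets were lower in glutamine depletion throughout. All 25 genes of the list were lower in glutamine depletion than in arsenite, and the median was -0.61. Past 2-fold were 6 of them (24%, against 1.33% of all genes compared). Hmox1, heme oxygenase, was at 265 TPM in glutamine depletion, 266 in the control, 256 in osmotic stress, 217 in glucose depletion, 497 in hypoxia, 1802 in ER stress and 6055 in arsenite. Glutamine depletion and the control had nearly the same level, and the difference between the 2 libraries was -4.51. Gclc and Gclm, the catalytic and modifier subunits of the first enzyme of glutathione synthesis, were at 16.9 and 67.2 TPM in glutamine depletion and at 60.0 and 228 TPM in arsenite. Their control levels were 21.8 and 75.7 TPM. Slc7a11, the cystine importer that supplies cysteine for glutathione, was at 5.11 TPM in glutamine depletion, 15.7 in arsenite, 2.60 in the control and 18.5 in ER stress.

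A pair of redox enzymes of the same list was over 2-fold above the control in both libraries. Srxn1, which repairs over-oxidised peroxiredoxins, was at 54.0 TPM in the control, 119 in glutamine depletion and 291 in arsenite. Txnrd1, the cytosolic thioredoxin reductase, was at 205, 468 and 634 TPM in that order, so that the direct difference was -0.44. Past 2-fold above the control were 7 NRF2 targets in arsenite (1.93% of all genes compared) and 2 in glutamine depletion (2.03%), Srxn1 and Txnrd1. Enzymes that supply NADPH and the iron store were within 2-fold: Pgd was at 118 TPM in glutamine depletion and 190.4 TPM in arsenite (difference -0.69), G6pdx at 50.5 and 64.6 TPM (difference -0.35), and the ferritin heavy chain Fth1 at 1217 and 1870 TPM (difference -0.62).

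The metallothioneins, small cysteine-rich proteins that bind zinc and cadmium, were highest in arsenite as well. Mt1 was at 335 TPM in glutamine depletion, 1585 in arsenite, 342 in the control and 1085 in hypoxia (difference -2.24). Mt2 was at 253, 1333, 168 and 659 TPM in the same order (difference -2.40). In both genes arsenite was the highest of the 7 libraries and hypoxia the next. Slc39a10, a zinc importer, went the other way, at 15.7 TPM in glutamine depletion, 7.07 in arsenite and 22.9 in the control. The 2 remaining genes of this list of 5 were within 2-fold.

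Of 19 genes of ubiquitin and the proteasome, 2 were over 2-fold higher in arsenite (10.5%, against 1.33% of all genes compared). The median was -0.22. Zfand2a, an arsenite-inducible partner of the proteasome, was at 24.2 TPM in glutamine depletion, 118 in arsenite and 24.3 in the control. Sqstm1, the autophagy receptor p62, was at 404, 801 and 365 TPM (difference -0.99, just within 2-fold), and its highest level was 1507 TPM in ER stress.

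**Figure D2:**
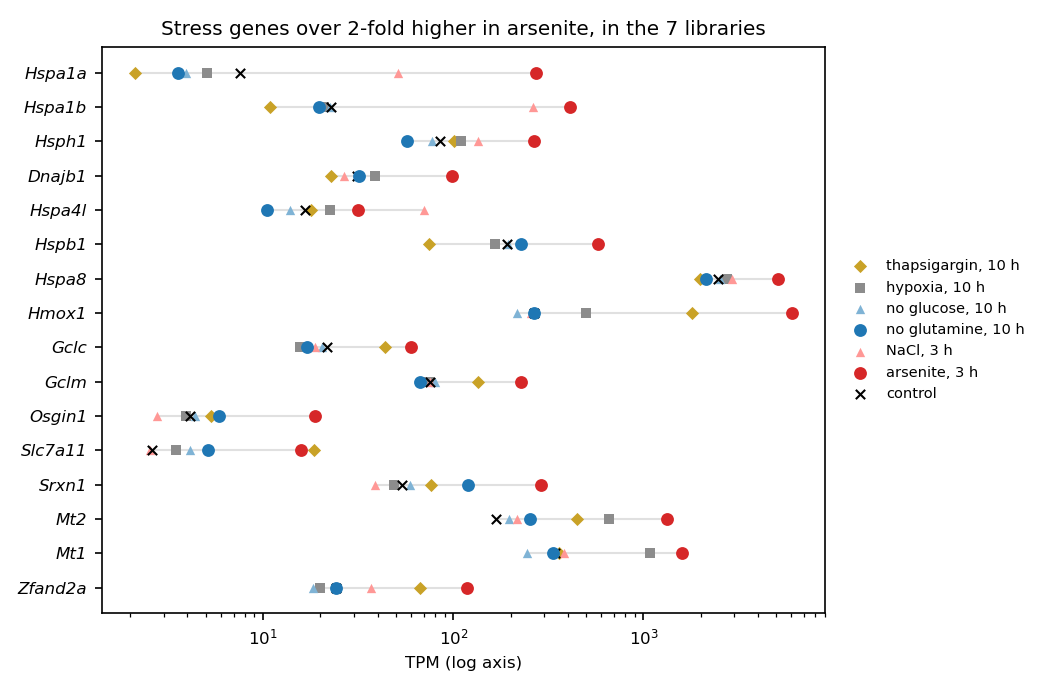
TPM on a log axis of 16 genes over 2-fold higher in arsenite on the heat shock, NRF2, metal and ubiquitin lists, with 1 mark per library. Arsenite is the highest library for most genes, and glutamine depletion lies near the control for most. Hspa4l is highest in osmotic stress and Slc7a11 in ER stress.

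Cholesterol synthesis was the list with the lowest median. All 22 genes were lower in glutamine depletion than in arsenite, with a median of -1.46 against 0.09 over all genes. Past 2-fold were 17 of them (77.3%, against 1.33% of all genes compared). Here both libraries departed from the control, and in opposite directions: the median was -0.88 for glutamine depletion minus control and 0.55 for arsenite minus control. Glutamine depletion was over 2-fold below the control for 8 of the 22 genes (1.87% of all genes compared), and arsenite over 2-fold above it for 4 (1.93%). Arsenite was over 2-fold below the control for 0 of them (3.6% of all genes).

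Insig1, whose product helps to hold SREBP2 in the ER, is itself a sterol gene. It was at 12.6 TPM in glutamine depletion, 124.6 in arsenite, 45.8 in the control, 101 in osmotic stress, 24.2 in glucose depletion, 26.8 in hypoxia and 47.4 in ER stress. Glutamine depletion was the lowest library and arsenite the highest, with a difference of -3.21. Hmgcs1, which makes HMG-CoA, was at 29.2 TPM in glutamine depletion, 98.5 in the control and 179 in arsenite (difference -2.58). Along the mevalonate steps, Mvd was at 8.87 TPM in glutamine depletion and 32.7 in arsenite, Idi1 at 31.0 and 142 TPM, and Mvk at 23.4 and 51.3 TPM.

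The enzymes after the branch to sterols gave the same order. Sqle, which oxidises squalene, was at 43.8 TPM in glutamine depletion, 88.3 in the control and 138 in arsenite. Cyp51 was at 53.7, 94.0 and 183 TPM, and Msmo1 at 87.5, 141 and 319 TPM. Stard4, a sterol carrier, did so too, at 5.87 TPM in glutamine depletion, 17.6 in the control and 23.6 in arsenite. The 5 genes within 2-fold included Pmvk (difference -0.99), Fdps (-0.95), Nsdhl (-0.95) and Srebf2 (-0.61). Srebf2, which encodes the factor itself, was at 54.0 TPM in glutamine depletion, 59.0 in the control and 82.7 in arsenite.

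The list differed between other libraries too. Between glucose depletion at 10 h and osmotic stress at 3 h, 13 of the 22 genes were over 2-fold lower in glucose depletion (2.06% of all genes compared), 0 were higher, and the median was -1.09 against 0.11 over all genes. For hypoxia minus osmotic stress the median was -0.84 with 8 genes over 2-fold lower (1.98% of all genes), and for ER stress minus osmotic stress it was -0.90, also with 8 lower (9.22% of all genes). These pairs hold neither of the 2 libraries of the comparison but share the osmotic library with each other. Each of them also sets a 10 h library against a 3 h library, and treatment and duration cannot be told apart here either.

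**Figure D3:**
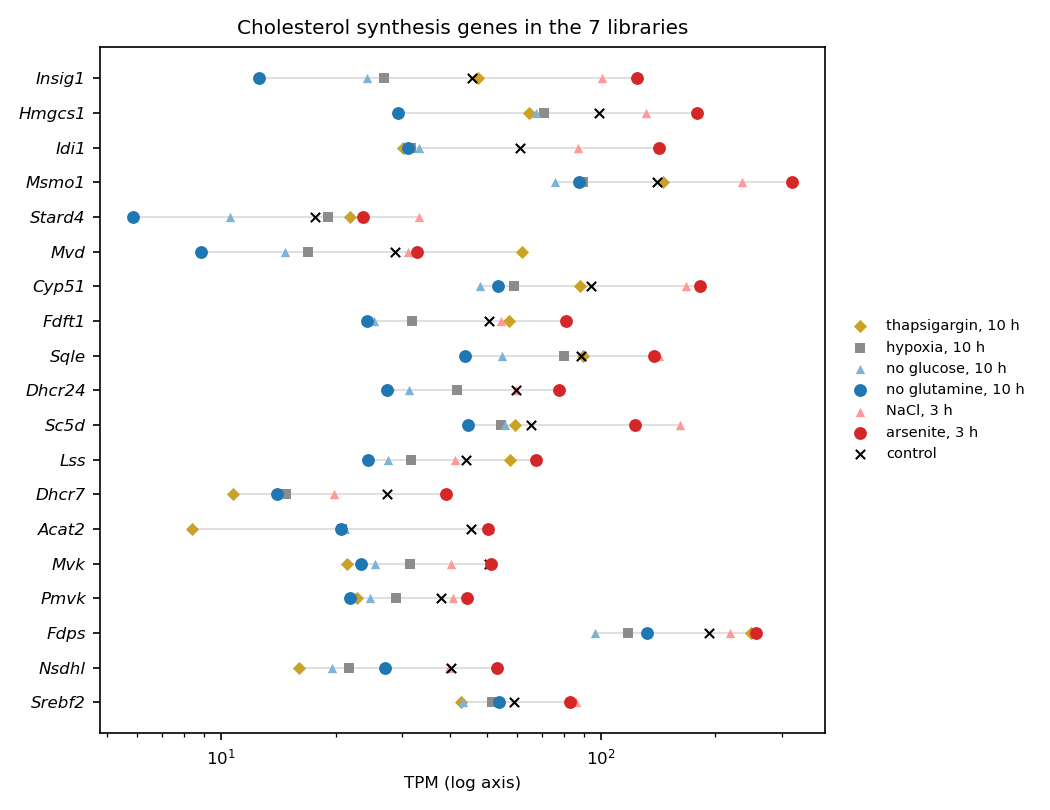
TPM on a log axis of 19 cholesterol genes in the 7 libraries, ordered by the difference between glutamine depletion and arsenite. Arsenite and osmotic stress, both at 3 h, lie to the right of the control for most genes, and glutamine depletion, glucose depletion and hypoxia, all at 10 h, lie to its left, while ER stress, also at 10 h, lies on both sides.

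Growth factors were the genes for which the 2 treatments had been put together. Of 54 growth factors compared, 46 were within 2-fold of each other in the 2 libraries, with a median of 0.30. In glutamine depletion 7 were higher (13.0%, against 1.65% of all genes compared). In arsenite 1 was higher (1.85%, near the 1.33% of all genes). Against the control, which both libraries share, 16 were over 2-fold higher in glutamine depletion (2.03% of all genes) and 0 lower (1.87%). In arsenite 13 were higher (1.93% of all genes) and 5 lower (3.6%). Past 2-fold above the control in both were 11 genes, and 2 of these, Il11 and Pdgfb, also differed by over 2-fold between the libraries. The share of all genes past 2-fold above the control in both was not counted.

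For the other 9 shared growth factors the libraries were within 2-fold of each other, with glutamine depletion mostly the higher. Clcf1, a cytokine of the IL-6 family that stands on 2 rows with identical values, was at 45.7 TPM in glutamine depletion, 44.8 in arsenite and 12.8 in the control. Hbegf, a ligand of the EGF receptor, was at 346, 275 and 60.2 TPM in that order (difference 0.33), and Ereg, another such ligand, at 108, 86.8 and 16.2 TPM (difference 0.32). Vegfa, the main angiogenic factor, was at 402, 322 and 78.6 TPM (difference 0.32). Lif was at 89.1, 59.3 and 9.74 TPM (difference 0.58), Fgf2 at 158, 109 and 46.9 TPM (0.54) and Inhba, the activin A subunit, at 896, 504 and 199 TPM (0.83). Areg, a ligand of the EGF receptor as well, was somewhat higher in arsenite, at 3.15 TPM in glutamine depletion, 4.93 in arsenite and 0.53 in the control (difference -0.51). How far any of these differences lies outside the spread between cultures is unknown.

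The 7 growth factors higher in glutamine depletion came from different families and stood differently to the control. Il11, a cytokine of the IL-6 family, was at 46.2 TPM in glutamine depletion, 21.01 in arsenite and 2.86 in the control (difference 1.10). Pdgfb, a ligand of the PDGF receptors, was at 15.5, 3.55 and 0.82 TPM (difference 1.86). Fgf7, which acts on epithelial cells, was at 115.6 TPM in glutamine depletion, the highest of the 7 libraries, 38.6 in arsenite and 51.3 in the control (difference 1.56). Fgf5 was at 9.36, 3.14 and 3.52 TPM (difference 1.32). These 4 were above the control in glutamine depletion, and Fgf7 and Fgf5 were near or below it in arsenite.

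For the other 3 arsenite was over 2-fold below the control. Bmp4 was at 36.4 TPM in glutamine depletion, 15.7 in arsenite and 69.2 in the control, so that both libraries lay below the control (difference 1.16). Fgf18 was at 7.05, 1.87 and 5.04 TPM (difference 1.49). Angptl4, a secreted inhibitor of lipoprotein lipase, was at 24.1 TPM in glutamine depletion, 25.5 in glucose depletion, 18.0 in hypoxia, 11.4 in the control and 4.72 in arsenite (difference 2.13). Fgf18 and Angptl4 also lay above the control in glutamine depletion, by 0.42 and 1.02 on the log2 scale. Gdf15, a stress cytokine, was the growth factor that was higher in arsenite, at 27.0 TPM against 5.64 in glutamine depletion and 7.03 in the control (difference -2.08).

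**Figure D4:**
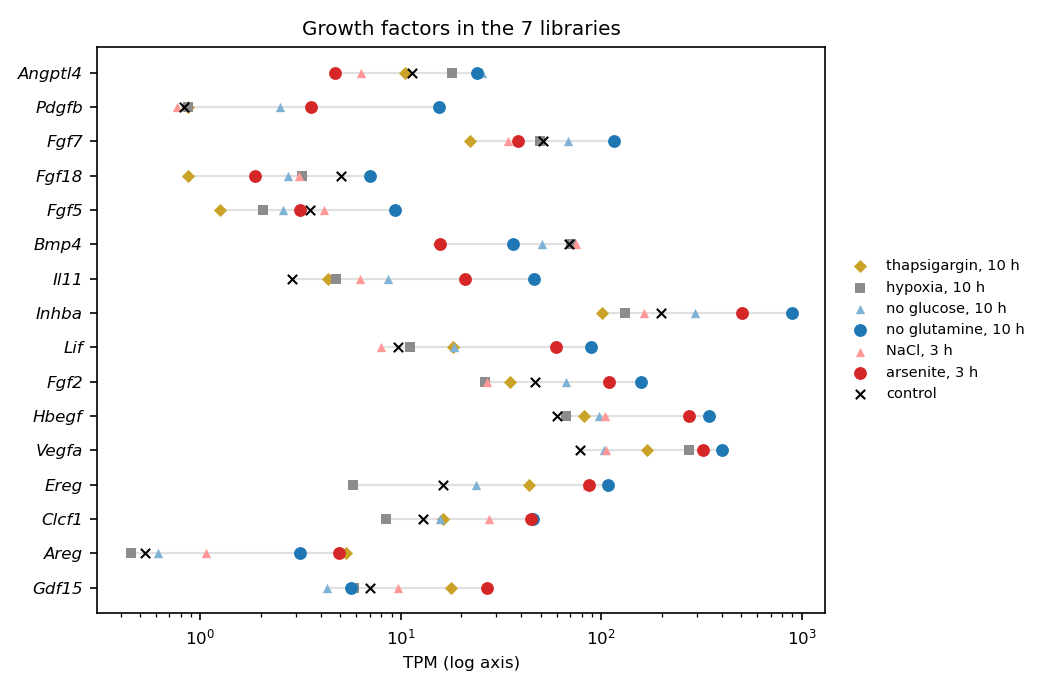
TPM on a log axis of 16 growth factors past 2-fold between the 2 libraries or past 2-fold above the control in both, with 1 mark per library. From Inhba to Areg the marks of glutamine depletion and arsenite lie close together to the right of the control, while Angptl4, Fgf7, Fgf18, Fgf5 and Bmp4 at the top have arsenite to its left.

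Genes of early signalling did not move as 1 group. Klf2, a zinc-finger factor known from endothelial quiescence, was at 41.5 TPM in glutamine depletion, 5.99 in arsenite, 25.0 in the control and 4.14 in osmotic stress, with 17.2 to 26.0 TPM in the other 3 libraries. Both 3 h libraries were the low ones (difference 2.61). Atf3, a stress-inducible AP-1 partner, was at 21.3 TPM in glutamine depletion, 88.3 in arsenite and 3.02 in the control, and at 112 TPM in ER stress. It was the single member past 2-fold of 11 AP-1 subunits (9.09%, against 1.33% of all genes compared), with a difference of -2.00. Jun was at 109 TPM in both libraries. Of 29 other immediate early genes, Klf2 was over 2-fold higher in glutamine depletion (3.45%, against 1.65% of all genes compared). Csrnp1 and Ier3 were over 2-fold higher in arsenite (6.90%, against 1.33%). Both were highest in osmotic stress, at 81.7 and 347 TPM.

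Of 19 feedback genes of the ERK pathway, 9 were over 2-fold higher than the control in glutamine depletion (2.03% of all genes). In arsenite 11 were higher (1.93%) and 1 was over 2-fold lower (3.6%). Past 2-fold above the control in both were 9 genes. The 2 libraries share that control, and the share of all genes past 2-fold above it in both was not counted. The largest direct differences went both ways, and the direct median was -0.01. Errfi1, an inhibitor of the EGF receptor, was at 298 TPM in glutamine depletion, 113 in arsenite and 28.1 in the control (difference 1.39). Spred2, an inhibitor of RAS signalling, was at 74.9, 40.0 and 18.5 TPM (difference 0.89). The phosphatases Dusp1 and Dusp8, which act mainly on the stress kinases p38 and JNK, were higher in arsenite. Dusp1 was at 48.4 TPM in glutamine depletion, 161 in arsenite, 44.3 in the control and 175 in osmotic stress (difference -1.72), and Dusp8 was at 6.27, 22.8, 4.005 and 5.55 TPM (difference -1.71).

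Among the 27 lists, YAP targets had the highest median, 0.47, and all 12 genes were higher in glutamine depletion. Past 2-fold were 3 of them (25%, against 1.65% of all genes compared). The least differed by 0.04, which is below the median of all genes and turns when that median is subtracted. Amotl2, a scaffold protein of cell junctions that restrains YAP, was at 283 TPM in glutamine depletion, 56.6 in arsenite and 195 in the control, with 160.2 to 219.8 TPM in the other 4 libraries. Its highest level was thus in glutamine depletion and its lowest in arsenite (difference 2.30). Nuak2, a kinase, was at 38.1 TPM in glutamine depletion, 9.02 in arsenite and 18.3 in the control (difference 1.96). Ajuba, a LIM-domain protein that binds LATS kinases, was at 38.6, 10.8 and 40.6 TPM (difference 1.75), so for this gene arsenite alone was away from the control. Ctgf, a matricellular protein, was above the control in both, at 3307 TPM in glutamine depletion, 1961 in arsenite and 1177 in the control (difference 0.75).

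Of 18 NF-κB targets, Tnfaip3 and Ccl20 were over 2-fold higher in glutamine depletion (11.1%, against 1.65% of all genes compared). Tnfaip3, the ubiquitin-editing inhibitor A20, was at 10.5 TPM in glutamine depletion, 2.79 in arsenite and 2.57 in the control (difference 1.61). Ccl20, a chemokine, was at 10.2, 1.40 and 1.75 TPM, and at 35.3 TPM in ER stress (difference 2.22). Both genes were low in arsenite. With a pseudocount of 5 TPM the difference fell to 0.996 for Tnfaip3, just within 2-fold, and to 1.25 for Ccl20. The list's median of 0.30 was the same as that of the growth factors.

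Few genes tied to amino acid supply were past 2-fold, although 1 of the treatments removed an amino acid. Of 17 genes of glutamine and glutamate metabolism, only Gpt2 was past 2-fold (5.88%, against 1.65% of all genes compared), and the median was 0.05. Gpt2, the mitochondrial alanine transaminase, was at 28.3 TPM in glutamine depletion, 11.7 in arsenite and 19.9 in the control (difference 1.21). Glul, glutamine synthetase, was at 18.5, 18.3 and 20.3 TPM (difference 0.01). Of 26 targets of ATF4, the factor of the amino acid response, 21 were higher in glutamine depletion. Their median was 0.27, against 0.09 over all genes. Stc2 and Nupr1 were higher by over 2-fold (7.69%, against 1.65% of all genes compared). Nupr1 was at 549 TPM in glutamine depletion, 235 in arsenite, 211 in the control and 568 in osmotic stress. Asns, asparagine synthetase, was at 168 TPM in glutamine depletion, 109 in arsenite, 141 in the control and 317 in ER stress. Chac1, which degrades glutathione, was above the control in both, at 86.8 TPM in glutamine depletion, 69.7 in arsenite and 26.2 in the control. None of the 20 aminoacyl-tRNA synthetases was past 2-fold (median 0.27), and 17 of them were higher in glutamine depletion.

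Most of the remaining lists were near the median of all genes, but those of mitosis and ribosome biogenesis had the highest medians after the YAP targets. All 20 ribosome biogenesis genes were higher in glutamine depletion, the least by 0.16, and so were 21 of the 22 mitosis genes. Of the mitosis genes, 7 were over 2-fold below the control in arsenite (3.6% of all genes) and 0 in glutamine depletion (1.87%). No member past 2-fold was found in 10 of the 27 lists, among them 15 genes of the unfolded protein response (median 0.14), 19 p53 targets (0.08), 22 mitosis genes (0.35), 24 collagens and matrix proteins (0.10), 18 actin and SRF targets (0.11), 12 TGF-beta targets (0.05), 11 collagenases and plasminogen genes (0.16), 3 MondoA targets (0.02) and 20 genes of ribosome biogenesis (0.33). Single members were higher in arsenite on 4 further lists (3.85% to 7.69% of a list, against 1.33% of all genes compared). Cdt1, a licensing factor of DNA replication, was at 10.3 TPM in glutamine depletion and 27.2 in arsenite, and the median of the 26 S-phase genes was 0.02. Per2, of the circadian clock, was at 2.96 TPM in glutamine depletion, 10.8 in arsenite and 1.41 in the control, and the median of 13 clock genes was -0.03. Car9, a HIF target, was at 2.13 and 8.18 TPM, with 34.8 TPM in hypoxia, and the median of 20 genes of glycolysis and HIF was -0.10. The mitochondrially encoded mt-Nd3 was at 1349 TPM in glutamine depletion and 3577 in arsenite, and the median of 15 such genes was -0.17.

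**Figure D5:**
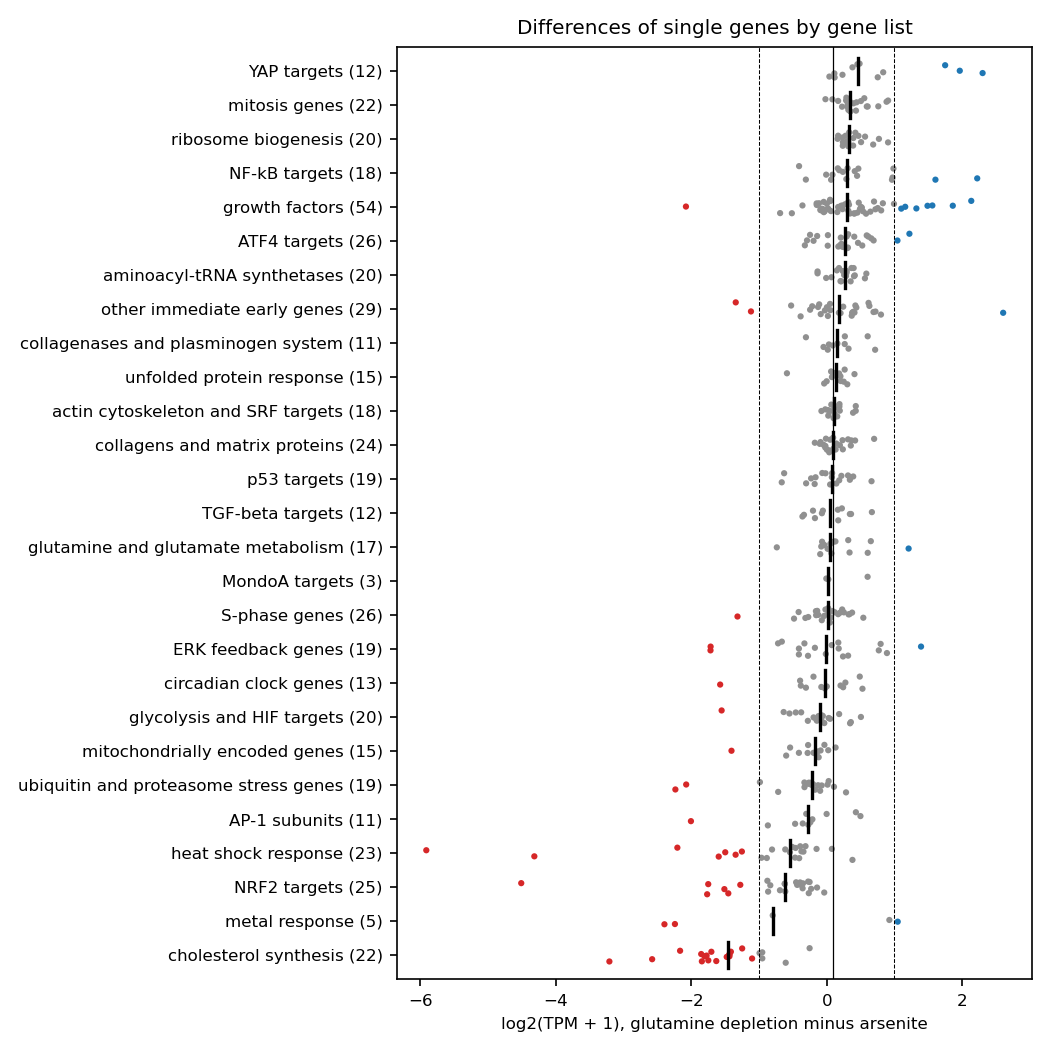
Difference of log2(TPM + 1), glutamine depletion minus arsenite, of each gene on the 27 lists, with the number of genes compared in brackets, a bar at each median, a solid line at the median of all genes (0.09) and dashed lines at 2-fold. Cholesterol synthesis lies lowest with 17 of 22 genes past 2-fold, the lists of arsenite-responsive genes follow with a few genes far to the left, and YAP targets lie highest.

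The lists held 44 of the 155 genes higher in arsenite (28.4%) and 18 of the 192 higher in glutamine depletion (9.38%), against 4.46% of all genes compared. Most members therefore lie outside any list, above all on the glutamine side. By gene type, 159 of the 192 and 131 of the 155 were protein-coding. Mean TPM over the 7 libraries was at least 10 for 87 of the 192 and for 93 of the 155. Past 3-fold were 39 genes higher in glutamine depletion and 49 higher in arsenite. Each side had 25 past 4-fold, of which 12 on the glutamine side and 13 on the arsenite side were protein-coding.

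The 12 protein-coding genes over 4-fold higher in glutamine depletion included Ccdc73, Klf2, Cyp26b1, Amotl2, Tnfsf15, Ccl20, Angptl4, Cav3, Has2 and Ahr. Has2, a hyaluronan synthase, was at 97.5 TPM in glutamine depletion, 21.8 in arsenite, 15.4 in the control and 29.1 in glucose depletion (difference 2.11). Cyp26b1, which degrades retinoic acid, was at 17.3 TPM in glutamine depletion, 2.31 in arsenite, 4.12 in the control and nearly as much in hypoxia as in glutamine depletion (difference 2.47). Tnfsf15, a cytokine of the TNF family, was at 6.63 TPM in glutamine depletion, the highest of the 7 libraries, and at 0.56 TPM in arsenite, the lowest (difference 2.29). Cav3, a caveolin best known from muscle, was at 7.19 TPM in glutamine depletion, 0.87 in arsenite and 7.16 in the control (difference 2.13). Ccdc73 was at 6.08, 0.14 and 8.10 TPM (difference 2.64). For Cav3 and Ccdc73 arsenite was the library over 2-fold below the control, and for Has2 glutamine depletion was the one over 2-fold above it. The 13 on the arsenite side included Hspa1a, Hmox1, Hspa1b, Insig1, Hmgcs1, Mt2, Mt1, Zfand2a, Hsph1, Idi1, Gdf15 and Atf3, whose values are given above.

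The 12 largest differences in each direction included 8 features on either side that were not protein-coding or not found in the annotation. On the glutamine side these were CAAA01205117.1, AC153368.1, Rnu73b, AC139186.1, AC166358.4, n-TSaga9, 1700026F02Rik and AC161829.1, and on the arsenite side CAAA01205117.2, AC154636.1, Trbj2-3, Scarna3a, AC100406.2, AC124394.1, mmu-mir-493 and AC153662.1. Over all members past 2-fold, 9 on each side were listed at 0 TPM in the lower library, none of them protein-coding, and for these no fold is given. CAAA01205117.1 was listed at 0 in arsenite and in osmotic stress and between 119 and 347 TPM in the other 5 libraries. CAAA01205117.2, which carries the same accession stem, was at 40.1 TPM in arsenite and 20.2 TPM in osmotic stress and at or near 0 in the rest. Scarna3a was at 16.7 TPM in arsenite and listed at 0 in every other library. AC153368.1 was at 77.9 TPM in glutamine depletion, 1.28 in arsenite and 14.9 to 74.0 in the others.

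Set beside the control, more of the genes higher in glutamine depletion were low in arsenite than were high in glutamine depletion. Of the 192, 81 (42.2%) were over 2-fold below the control in arsenite and 49 (25.5%) over 2-fold above it in glutamine depletion. The shares of all genes were 3.6% and 2.03%, so the same order held over all genes. The medians were -0.86 and 0.40 against -0.17 and -0.10 over all genes, and 64 were within 2-fold of the control in both. Arsenite was the lowest of the 7 libraries for 89 of them and glutamine depletion the highest for 79. Of the 155, 63 (40.6%) were over 2-fold above the control in arsenite and 40 (25.8%) over 2-fold below it in glutamine depletion. The shares of all genes were 1.93% and 1.87%. The medians over the 155 were 0.75 and -0.59, and 53 were within 2-fold in both. Arsenite was the highest library for 85 of these and glutamine depletion the lowest for 63. These counts use the libraries that chose the genes and are given as a description.

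The libraries that took no part in the difference can be set beside it. Of the 192 genes, 53 (27.6%) were over 2-fold higher in glucose depletion than in osmotic stress, against 7.25% of all genes, 46 (24.0%) were higher in hypoxia than in osmotic stress, against 8.61%, and 63 (32.8%) were higher in ER stress than in osmotic stress, against 17.2%. Over 2-fold lower were 10 (5.21%), 8 (4.17%) and 31 (16.1%), against 2.06%, 1.98% and 9.22% of all genes, so both directions were above the shares of all genes. The medians of these 3 differences over the 192 genes were 0.55, 0.42 and 0.32, against 0.11, 0.09 and 0.15 over all genes. Of the 155 genes, 34 (21.9%) were over 2-fold lower in glucose depletion than in osmotic stress, 28 (18.1%) in hypoxia and 34 (21.9%) in ER stress, against 2.06%, 1.98% and 9.22% of all genes. Over 2-fold higher were 12 (7.74%), 25 (16.1%) and 33 (21.3%), against 7.25%, 8.61% and 17.2%. The medians over the 155 were -0.25, 0.08 and 0. These shares describe a long treatment against a short one without either of the 2 libraries, and all 3 rest on the same osmotic library. What part duration had in the differences between glutamine depletion and arsenite was not tested.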

How the data were processed

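The samples were 7 RNA-seq libraries of MEFs, grouped by their treatment labels, with 1 library per condition. The authors deposited TPM per gene, estimated with Kallisto (version 0.43.1 per the submitters' processing notes) at default settings against the GRCm38 cDNA of Ensembl release 90 and summed over transcripts. Each library sums to the same total, so an abundant transcript lowers the share of all others, and the read depth is unknown.

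From these values log2(TPM + 1) was computed with a pseudocount of 1 TPM, and glutamine depletion minus arsenite was taken directly where the 7 libraries averaged 2 TPM or more. Symbols starting with Gm, Mir, Snor or mt-T and symbols with -ps or -rs were left out, among them 12 named genes such as Gmps and Gmnn. A difference of more than 2-fold on this scale was counted, in each direction. No p-value is given. Some genes that the counts include are not reported by name here. Gene types came from GENCODE M21 on GRCm38 (124 genes unmatched, counted as not protein-coding), and promoters came from RefSeq.

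The comparison, its members and the 27 gene lists were chosen with earlier results of these data known. The sterol response element and the 6 lists of the closing section were added after seeing the values. Genes named were the 12 with the largest difference in each direction, Hmox1 and Hspa1a, members of the lists, and growth factors past 2-fold between the libraries or above the control in both. Tnfsf15 and Cav3, and other protein-coding genes past 4-fold, were added after their values were seen. Within a list, repeated rows of a symbol counted once. The alternatives were other pseudocounts, filters, thresholds, symbol rules and scalings. The steps were tested on simulated data. Computations ran in Python 3.11.15 with pandas 2.3.3 and numpy 2.4.6, and plots were drawn with matplotlib 3.10.9.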

Additional observations from a re-analysis of the deposited data

How the results depend on the processing

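The 2 counts past 2-fold, 192 higher in glutamine depletion and 155 in arsenite, were recomputed under 15 alternatives, 13 of them planned. A pseudocount of 0.1 TPM gave 317 higher in glutamine depletion, and a pseudocount of 5 TPM gave 59 and 82. Without an expression filter 277 genes were higher in arsenite, and a mean of at least 10 TPM gave 87 and 93. A 1.5-fold threshold gave 920 and 497, and a 3-fold threshold 39 and 49. With no symbol left out the counts were 383 and 441. Under the other alternatives both counts stayed within 1.5 times. These were centring on the median, removal of the mitochondrially encoded or of the 100 most abundant genes, a filter on the 2 libraries alone, leaving out Gm symbols only where a digit follows, leaving out repeated symbols, and, added after seeing the data, protein-coding genes or genes above 0 TPM in both. Of 689 recomputed values of named genes 12 took another sign, all under the 3 changes of scaling and none of them of a gene past 2-fold or of more than 0.08 as reported, and 41 moved, all of them under the pseudocounts of 0.1 or 5 TPM. Of the list medians 5 took another sign after centring, 2 after removal of the mitochondrially encoded genes and 1 after removal of the 100 most abundant genes. No paired analysis was possible because each condition had 1 library, and no library could be left out for the same reason.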

Other observations

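Lists written after the values were seen add some further gene groups, and their counts are descriptions of genes already known to differ. Lipid genes outside the sterol pathway were lower in glutamine depletion as well. Of 15 genes of fatty acid synthesis 5 were over 2-fold lower than in arsenite (33.3%, against 1.33% of all genes compared). The median was -0.62. Fasn, the fatty acid synthase, was at 46.9 TPM in glutamine depletion, 78.9 in the control and 119 in arsenite. Pcyt2, an enzyme of phosphatidylethanolamine synthesis, was at 25.3, 48.7 and 79.7 TPM in that order. Genes of the lysosome and of the folliculin complex, which signals amino acid supply at the lysosome, gave 9 of 33 over 2-fold lower in glutamine depletion. This was 27.3%, against 1.33% of all genes compared, and the median was -0.42. Flcn was at 14.1 TPM in glutamine depletion, 28.8 in the control and 34.0 in arsenite, and its partner Fnip2 at 9.96, 17.1 and 39.7 TPM. Ctns, the lysosomal cystine exporter, was at 7.71, 25.9 and 23.1 TPM, so that glutamine depletion stood over 2-fold below the control and arsenite near it.

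Genes of the aryl hydrocarbon receptor went in different directions. The receptor gene Ahr was at 24.7 TPM in glutamine depletion, 13.1 in the control and 5.04 in arsenite. Its known targets Ahrr and Tiparp were lower in glutamine depletion than in arsenite, with Ahrr at 4.42, 26.2 and 14.46 TPM in that order and Tiparp at 25.1, 40.8 and 76.5 TPM. Of 6 connexins, the channel proteins of gap junctions, 3 were over 2-fold higher in glutamine depletion (50%, against 1.65% of all genes compared). Among them was Gjb2 at 358 TPM in glutamine depletion, 88.2 in the control and 142 in arsenite. Of 11 genes of retinoic acid metabolism 4 were over 2-fold higher in glutamine depletion (36.4%, against 1.65%). They lay on the side of synthesis (Aldh1a3, at 50.3, 8.69 and 21.8 TPM) and of degradation (Cyp26b1). The 7 hyaluronan genes had a median of 0.10, near that of all genes. Over 2-fold higher in glutamine depletion were 2 of them (28.6%, against 1.65%). These were the synthase Has2 and Tnfaip6, a hyaluronan-binding protein, at 13.2, 3.04 and 5.81 TPM. None of these groups has a replicate.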
